A study of Mus musculus with 8 samples.

Results

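Etv5, Etv4, Bcl6b, Lhx1, Pou3f1, Egr2 and Egr3 encode transcription factors that the growth factor GDNF induces in spermatogonial stem cells. They were followed here in Thy1-positive cells of the mouse testis, on every array probe whose RefSeq accession belongs to these 7 genes. The rule found 9 probes of 41174 on the array: 2 each for Etv5 and Egr3 and 1 for each other gene. All 9 were well above background on all 8 arrays.

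The series holds 4 samples labelled Glis3KO2 (Glis3KO in their titles) and 4 wild type (WT) samples, all C57BL/6, at postnatal day 4, from untreated pups left with their mother. Glis3 encodes a nuclear protein related to the GLI zinc finger factors. The design text speaks of 3 testes per genotype, and the labels do not say which part of Glis3 was removed or whether the samples came from separate animals. The p-values therefore reflect only how far these samples scatter, and that scatter may be technical. Replicates 1 and 3 of both genotypes lay on slide 1 and replicates 2 and 4 on slide 2.

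GDNF is made by somatic cells of the testis and binds GFRA1 and its partner receptor RET on undifferentiated spermatogonia. In cultured rodent stem cells the signal runs through SRC family kinases, PI3K with AKT, and the MEK-ERK cascade, and it raises transcripts of the factors described here. In mice, loss of Etv5 leads to a progressive loss of spermatogonial stem cells, and Bcl6b is needed for their efficient self-renewal.

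The 75th percentile of signal, to which every log2 value below is relative, ranged from 251 to 458 units on the Glis3KO2 arrays and from 243 to 533 on the WT arrays. The Glis3 probe gave -1.98, -2.18, -1.18 and -1.32 (log2) in Glis3KO2 replicates 1 to 4, against -1.09, -1.01, 0.57 and 0.60 in WT replicates 1 to 4. Every Glis3KO2 array lay below every WT array, as for 2.6% of all genes. The Glis3 difference was -1.43 (SE 0.45), with an adjusted p of 0.697 (limma). The labels do not place this probe inside or outside the removed part. All 14 germ cell markers measured were well above background on all 8 arrays. So were 9 of 10 stromal, 8 of 8 peritubular, 10 of 10 macrophage and 9 of 9 Sertoli markers. Thy1, the surface marker of the sort, read 2.21, 2.46, 1.36 and 1.47 in Glis3KO2 replicates 1 to 4, against 1.55, 2.05, 1.33 and -0.03 in WT replicates 1 to 4, and the groups overlapped.

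Comparing Glis3KO2 with WT, all 7 genes had a lower mean in Glis3KO2, a direction that 59.2% of the 17513 genes tested shared. The median log2 difference was -0.79 over the 7 genes and -0.08 over all genes. Bcl6b, a transcriptional repressor, had the largest difference of the 7 at -1.37, followed by Egr2 at -0.98, Pou3f1 at -0.84 and Etv5 at -0.79. None of the 7 passed the threshold of 0.05 over all genes (limma, Benjamini-Hochberg adjusted p between 0.697 and 0.995), and 0% of genes did. At an unadjusted p under 0.05 (limma) Bcl6b, Pou3f1 and Egr2 were lower, 3 of 7, where 4.75% of all genes were lower at that level. None of the 7 was higher at that level, and 2.15% of genes were. The count of 3 depended on single arrays: without WT replicate 3 it was 1 (Bcl6b, with Pou3f1 at an unadjusted limma p of 0.0502 and Egr2 at 0.120), and without WT replicate 1 it was 5, with Etv5 and Egr3 added. In 0 of the 7 genes did every Glis3KO2 array lie below every WT array, which held for 2.6% of genes.

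**Figure D1:**
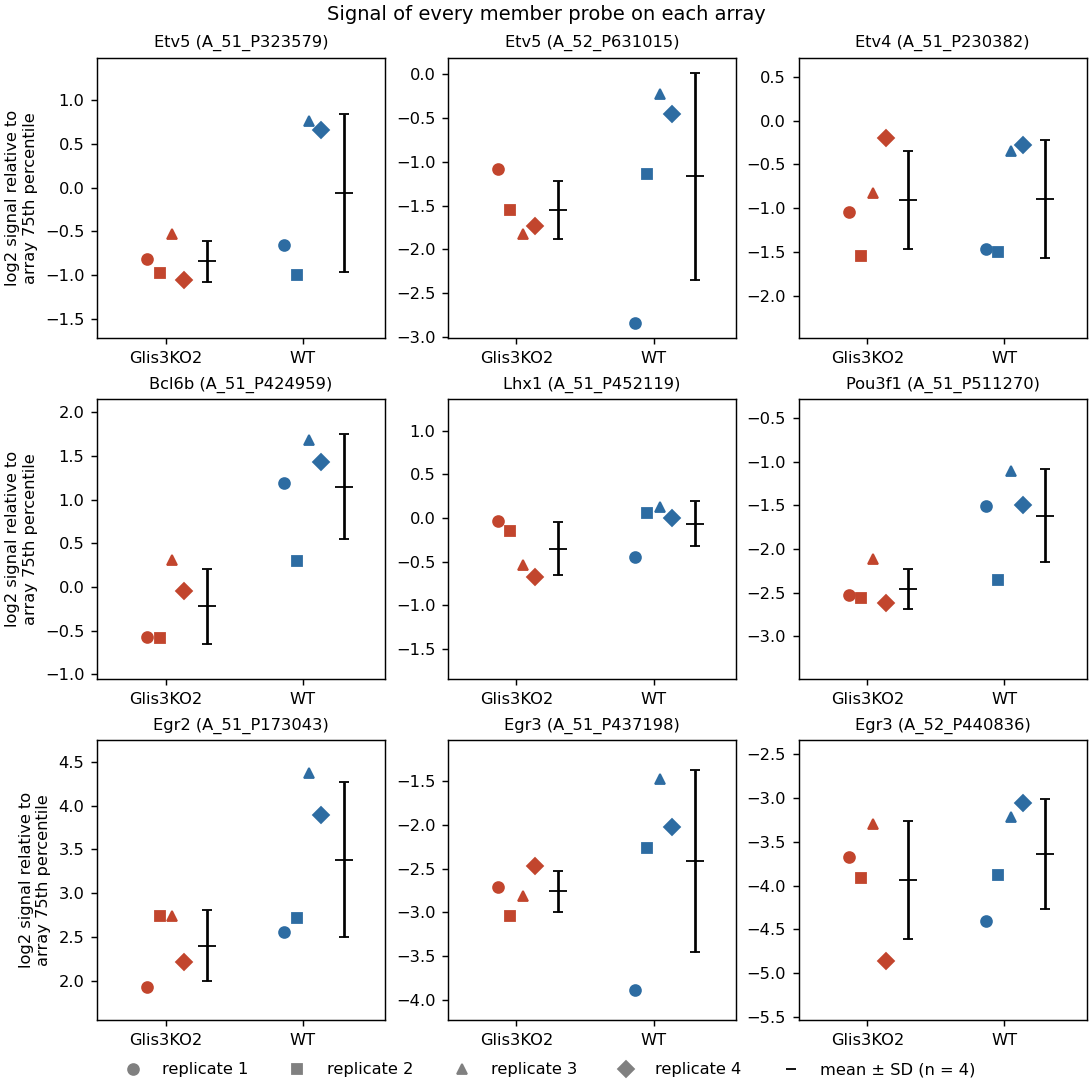
Log2 signal after subtraction of each array's 75th percentile (vertical axis, the same span in each panel) for the 9 probes, with Glis3KO2 arrays left of WT arrays. Symbols mark replicate numbers and the bar is the mean ± SD of 4 arrays; WT replicates 3 and 4 stand highest for Etv5 and Egr2, while for Bcl6b WT replicate 1 also stands above all Glis3KO2 arrays.

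Bcl6b encodes a BTB domain and zinc finger repressor related to BCL6. Its log2 signal was -0.57, -0.58, 0.31 and -0.05 in Glis3KO2 replicates 1 to 4, against 1.19, 0.30, 1.68 and 1.43 in WT replicates 1 to 4. The groups touched at a single point, where Glis3KO2 replicate 3 (0.31) reached the level of WT replicate 2 (0.30), and the other arrays were apart. The means were -0.22 ± 0.43 in Glis3KO2 and 1.15 ± 0.60 in WT (SD, n = 4 each), a 2.59-fold lower signal in Glis3KO2. The difference of -1.37 had a 95% interval of -2.13 to -0.61 (limma, not adjusted) and an adjusted p of 0.697. Within slides 1 and 2 it was -1.56 and -1.18. It was negative in 4 of 4 numbered pairs, at -1.76, -0.88, -1.37 and -1.47, as for 13.5% of all genes. Bcl6b was thus lower in pairs 1 and 2 as well as in pairs 3 and 4, by -1.32 and -1.42 on average. By p-value 52 of the 17513 genes came before it.

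Pou3f1 encodes a POU domain factor, also called Oct6, that is best known from myelinating Schwann cells. Its log2 signal was -2.52, -2.56, -2.12 and -2.61 in Glis3KO2 replicates 1 to 4, against -1.51, -2.35, -1.10 and -1.50 in WT replicates 1 to 4. Only WT replicate 2 fell within the Glis3KO2 range. The probe, with 1 spot per array, was dim: before scaling it read 56 to 125 units, against array 75th percentiles of 243 to 533. The difference was -0.84 (SE 0.29, adjusted p = 0.697 by limma), a 1.79-fold lower signal in Glis3KO2, with a 95% interval of -1.48 to -0.19. It was lower in 4 of 4 pairs, by -1.02, -0.21, -1.02 and -1.11, so pair 2 contributed little. Within slides 1 and 2 it was -1.02 and -0.66. Among 10 Schwann cell and glial markers, 9 were well above background on all arrays and Cdh19 on none. Of the 9 measured, 6 had a lower and 3 a higher mean in Glis3KO2, with a median difference of -0.02 and 0 past the threshold. Sox10, a defining factor of that lineage, was at -0.21 (SE 0.24), Gfap at -0.32 (SE 0.24), S100b at 0.24 (SE 0.29) and Fabp7 at 0.84 (SE 0.56). Their part in the Pou3f1 signal was not tested.

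The processed signals as deposited, before any scaling between arrays, set the groups apart for Bcl6b and Pou3f1, which the log2 values above did not. Bcl6b read 252, 306, 311 and 330 units in Glis3KO2 replicates 1 to 4, against 809, 655, 779 and 731 units in WT replicates 1 to 4. Pou3f1 read 65.0, 77.4, 57.9 and 55.8 units in Glis3KO2, against 124.6, 104.2, 113.3 and 96.1 units in WT. On this scale every Glis3KO2 array lay below every WT array for 2 of the 7 genes, Bcl6b and Pou3f1, and for 1.71% of all genes. This comparison was added after the signals were seen, and its limma fit called 0 genes (423 at an unadjusted p under 0.05). The absence of overlap depended on the scaling: with normexp background correction it held for Pou3f1 alone under the 75th percentile, where it held for 6.26% of all genes, and for Bcl6b alone under quantile normalization, where it held for 2.38%.

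**Figure D2:**
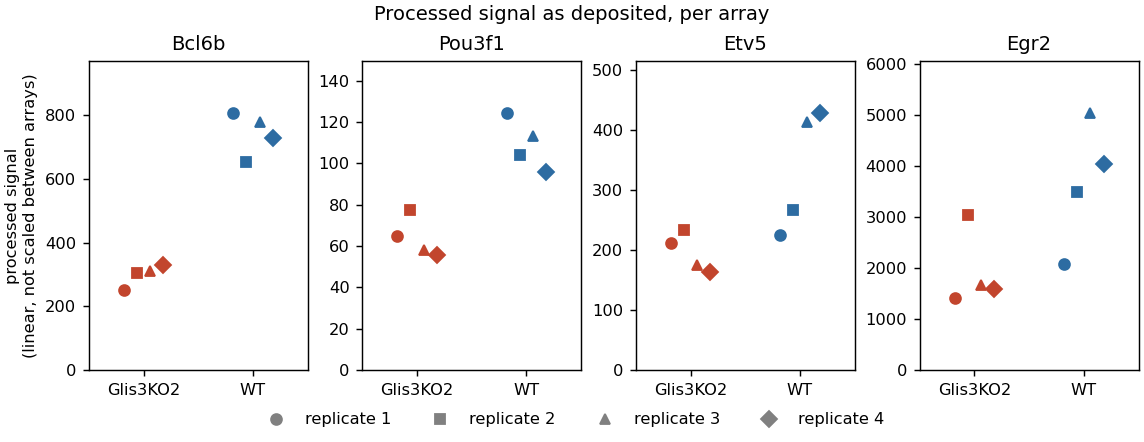
Processed signal in linear units as deposited, not scaled between arrays (vertical axis from 0), for 4 of the genes, with Glis3KO2 left of WT and symbols for replicate numbers. Bcl6b spans 252 to 330 in Glis3KO2 and 655 to 809 in WT, while for Etv5 and Egr2 the groups overlap and WT replicates 3 and 4 read highest.

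Etv5 encodes an ETS domain factor of the PEA3 group and sits upstream of Bcl6b in cultured stem cells. The brighter of its 2 probes gave -0.82, -0.97, -0.53 and -1.06 in Glis3KO2 replicates 1 to 4, against -0.65, -1.001, 0.77 and 0.66 in WT replicates 1 to 4. WT replicates 1 and 2 lay inside the Glis3KO2 range, and WT replicates 3 and 4 lay above every other array. The difference of -0.79 (SE 0.41, adjusted p = 0.697 by limma) had an interval of -1.69 to 0.12. By pair it was -0.17, 0.03, -1.29 and -1.72, an average of -0.07 in pairs 1 and 2 and -1.50 in pairs 3 and 4, and within slides 1 and 2 it was -0.73 and -0.84. Without WT replicates 3 and 4 it was -0.02. The second Etv5 probe differed by -0.38 (SE 0.52, adjusted p = 0.879 over all probes). It read -1.09, -1.55, -1.83 and -1.73 in Glis3KO2, against -2.85, -1.14, -0.23 and -0.45 in WT. Both probes put WT replicates 3 and 4 on top, and they disagreed on WT replicate 1, which was the lowest array for the second probe.

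Etv4 encodes the closest relative of Etv5 on this list, another PEA3 group factor. Its log2 signal was -1.05, -1.55, -0.83 and -0.20 in Glis3KO2 replicates 1 to 4, against -1.46, -1.50, -0.35 and -0.28 in WT replicates 1 to 4. The groups overlapped throughout. The difference was -0.01 (SE 0.39, adjusted p = 0.995 by limma), with an interval of -0.87 to 0.85, and it turned sign under several settings (0.57 without WT replicates 3 and 4). In both genotypes replicates 3 and 4 were above replicates 1 and 2. Etv1, the third PEA3 group gene, had a mean of 0.62 in Glis3KO2 and -0.12 in WT, a difference of 0.74 (SE 0.39, adjusted p = 0.697).

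Egr2 encodes a zinc finger factor of the early growth response family, induced within minutes of growth factor signals in many cells. The windows before a pair of its RefSeq start sites are shown because, of the members' windows searched, only those of Egr2 hold a match, and its other matching windows overlap the second one shown and repeat its matches. Each is read 5′ to 3′ on the plus strand of GRCm38.p6 (RefSeq), with matches to the motifs searched in capitals: chr10:67537316-67537565 and chr10:67537619-67537868.
Egr2, start site 67537566: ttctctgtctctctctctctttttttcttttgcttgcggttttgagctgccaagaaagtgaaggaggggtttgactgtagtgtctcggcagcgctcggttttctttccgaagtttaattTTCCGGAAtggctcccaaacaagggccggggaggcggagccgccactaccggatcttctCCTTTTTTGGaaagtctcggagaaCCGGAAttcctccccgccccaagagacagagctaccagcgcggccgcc
Egr2, start site 67537869: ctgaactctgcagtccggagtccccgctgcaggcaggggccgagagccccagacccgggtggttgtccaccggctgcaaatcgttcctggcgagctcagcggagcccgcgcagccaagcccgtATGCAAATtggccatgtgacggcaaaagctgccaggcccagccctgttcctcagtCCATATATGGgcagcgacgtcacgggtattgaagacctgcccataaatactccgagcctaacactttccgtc

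In the first window the ETS motif CCGGAA occurs at -129 and -48 and, on the opposite strand and overlapping the first, at -131, and a CArG box, the kind of site bound by serum response factor, begins at -72. In the second window the POU octamer ATGCAAAT begins at -127 and a CArG box at -72. Over both strands of 32851 windows of 250 bases in the RefSeq promoter table, CCGGAA occurs in 12.03%, the octamer in 1.6% and a CArG box in 1.47%. The EGR motif GCGNGGGCG, the LIM homeobox motif TAATTA, the BCL6 motif TTCCTNGAA and the CRE motif TGACGTCA were searched too and have no match in the windows of Egr2. The windows of Etv5 and Lhx1 held none of the motifs searched. The table has entries for 3 of the 7 genes, Egr2, Etv5 and Lhx1. A match describes letters only.

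The Egr2 probe was printed 10 times on each array. Its log2 signal was 1.92, 2.73, 2.73 and 2.21 in Glis3KO2 replicates 1 to 4, against 2.56, 2.71, 4.38 and 3.89 in WT replicates 1 to 4. As for Etv5, WT replicates 3 and 4 stood above all other arrays and WT replicates 1 and 2 were within the Glis3KO2 range. The spots of 1 array, which share 1 labelled RNA, differed by an SD of 0.03 to 0.06 (log2). The SD between arrays was 0.40 in Glis3KO2 and 0.89 in WT, and it may hold technical scatter that repeated spots do not show. The difference of -0.98 (SE 0.42, adjusted p = 0.697 by limma) was a 1.98-fold lower signal in Glis3KO2, with an interval of -1.92 to -0.04. By pair it was -0.63, 0.02, -1.64 and -1.68, and within slides 1 and 2 -1.14 and -0.83. Without WT replicate 3 it was -0.65, and without WT replicates 3 and 4 it was -0.23.

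Egr3 encodes a second factor of the same family. Its brighter probe read -2.71, -3.04, -2.82 and -2.47 in Glis3KO2 replicates 1 to 4, against -3.89, -2.26, -1.48 and -2.03 in WT replicates 1 to 4. WT replicate 1 was the lowest of all arrays and the other WT arrays were the highest. The difference was -0.35 (SE 0.45, adjusted p = 0.839 by limma), -0.84 without WT replicate 1 and -0.04 without WT replicate 3. Both Egr3 probes were dim. Before scaling the brighter read 24 to 111 units and the other 12 to 36, against array 75th percentiles of 243 to 533. The other Egr3 probe, matched to another RefSeq transcript of the gene, read -3.67, -3.92, -3.29 and -4.86 in Glis3KO2 replicates 1 to 4, against -4.41, -3.88, -3.22 and -3.05 in WT replicates 1 to 4. WT replicate 1 was again the lowest WT array, Glis3KO2 replicate 4 was the lowest of all, and the difference was -0.30 (SE 0.41, adjusted p = 0.881 over all probes by limma). Related genes did not share a direction: Egr1 had a difference of 0.33 (SE 0.45) and Egr4 -0.45 (SE 0.32), neither past the threshold (adjusted p = 0.848 and 0.721). Egr2 and Egr3 are also immediate early genes, which cell isolation can induce, and of the 17 other immediate early genes measured 5 had a lower and 12 a higher mean in Glis3KO2. Their median difference was 0.19, with Fos, a partner of the AP-1 complex, at 1.12 (SE 0.75, adjusted p = 0.710). Their centred mean ranged from -0.44 to 0.62 in Glis3KO2 and from -0.59 to 0.61 in WT, and its part in the Egr values was not tested.

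Lhx1 encodes a LIM homeobox factor, needed for head and kidney development in mice and induced by GDNF in cultured spermatogonia. Its probe was also printed 10 times. It read -0.03, -0.15, -0.54 and -0.68 in Glis3KO2 replicates 1 to 4, against -0.44, 0.06, 0.13 and 0.00 in WT replicates 1 to 4. The values of the groups overlapped through WT replicate 1. The spots of 1 array differed by an SD of 0.02 to 0.08, and the arrays by an SD of 0.31 in Glis3KO2 and 0.26 in WT. The difference of -0.29 (SE 0.24, adjusted p = 0.755 by limma) had an interval of -0.83 to 0.25, which leaves out a halving of the signal. By pair it was 0.41, -0.21, -0.67 and -0.68.

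The numbered pairs separated the 7 genes. In pairs 3 and 4 the genes with a lower Glis3KO2 value were 7 and 6 of 7, where 58.8% and 57.7% of all genes were lower. In pairs 1 and 2 they were 4 and 5 of 7, where 54.6% and 49.9% of genes were lower. Bcl6b and Pou3f1 were lower in all 4 pairs. Etv5 and Egr2 differed by -1.72 to -1.29 in pairs 3 and 4 and by -0.63 to 0.03 in pairs 1 and 2.

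**Figure D3:**
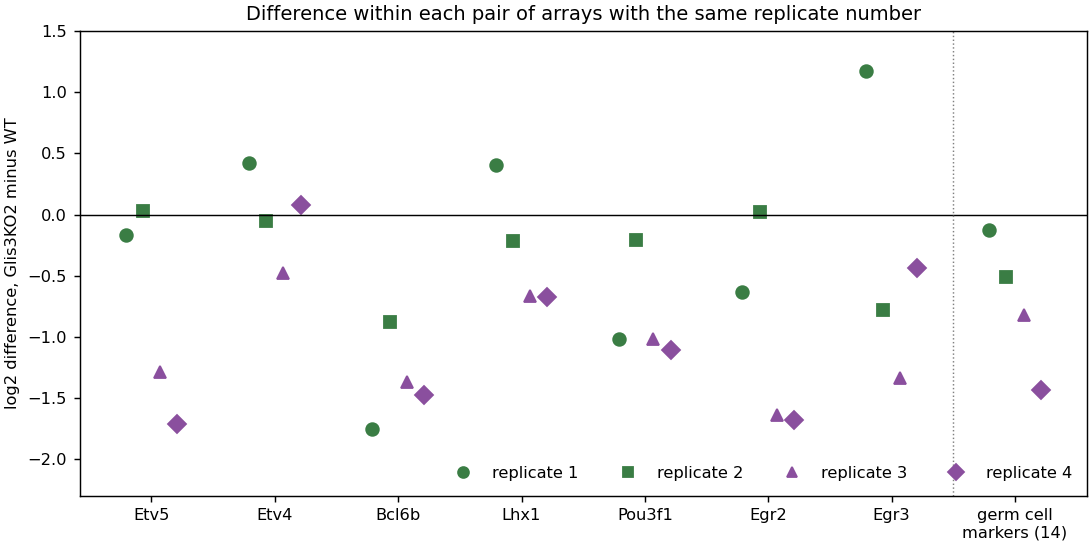
Log2 difference, Glis3KO2 minus WT, within each pair of arrays that share a replicate number (vertical axis), for the 7 genes and for the mean of 14 germ cell markers. Bcl6b lies between -1.76 and -0.88 in all pairs, while Etv5 and Egr2 lie near 0 in pair 2 and between -1.72 and -1.29 in pairs 3 and 4.

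Markers of germ cells were read on the same arrays. All 14 measured germ cell markers had a lower mean in Glis3KO2, as did 59.2% of all genes. Their differences ran from -1.45 to -0.02, with a median of -0.77. Those of smallest p included Tdrd9, a helicase of the piRNA pathway, at -1.45 (SE 0.41), and Piwil2 at -1.07 (SE 0.45). Nanos3, an RNA-binding protein of early germ cells, was at -1.16 (SE 0.26). Of the markers 0 passed the threshold and 6 were lower at an unadjusted p under 0.05 (limma), where 4.75% of all genes were. The mean of the markers' centred values was -0.48, -0.74, -0.02 and -0.21 in Glis3KO2 replicates 1 to 4, against -0.35, -0.23, 0.81 and 1.22 in WT replicates 1 to 4. WT replicates 3 and 4 stood highest, as for Etv5 and Egr2. By pair the marker mean differed by -0.13, -0.51, -0.83 and -1.43. Bcl6b differed by -1.76, -0.88, -1.37 and -1.47 in the same pairs. In bulk RNA fewer germ cells and less of a transcript per germ cell cannot be told apart. Somatic lists did not share a direction. A higher mean in Glis3KO2 was found for 10 of 10 stromal markers (median difference 1.002), 8 of 8 peritubular markers (1.01), 9 of 10 macrophage markers (0.16) and 8 of 9 epididymal and mesonephric markers (0.75). Endothelial markers were split, with 4 lower and 4 higher (0.05), and 7 of 9 Sertoli markers had a lower mean (-0.27), as the germ cell markers did. None of these somatic markers passed the threshold. The centred stromal mean ranged from -0.06 to 1.70 in Glis3KO2 and from -1.09 to 0.68 in WT. The part of this mixture in the values of the 7 genes was not tested.

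When the germ cell marker mean of each array was subtracted, 4 of the 7 genes kept a lower mean in Glis3KO2 and 3 did not. Under the alternatives described below, this count of 4 ranged from 3 to 5. The subtraction lifts every gene by the marker difference of 0.72, so that 5.26% of all genes remained lower. Bcl6b differed by -0.65, Egr2 by -0.26, Pou3f1 by -0.11 and Etv5 by -0.06. Bcl6b values relative to the markers were -0.09 to 0.33 in Glis3KO2 and 0.20 to 1.54 in WT, and its difference was negative in 4 of 4 pairs. Pair 1 gave -1.63 of it, and pair 4 -0.04. Etv4, Lhx1 and Egr3 turned to 0.72, 0.44 and 0.38. For Etv4 every Glis3KO2 array (-0.81 to 0.01) then lay above every WT array (-1.50 to -1.11), as it did for 5.06% of all genes. The reverse held for 0 of the 7 and for 0.0571% of genes.

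**Figure D4:**
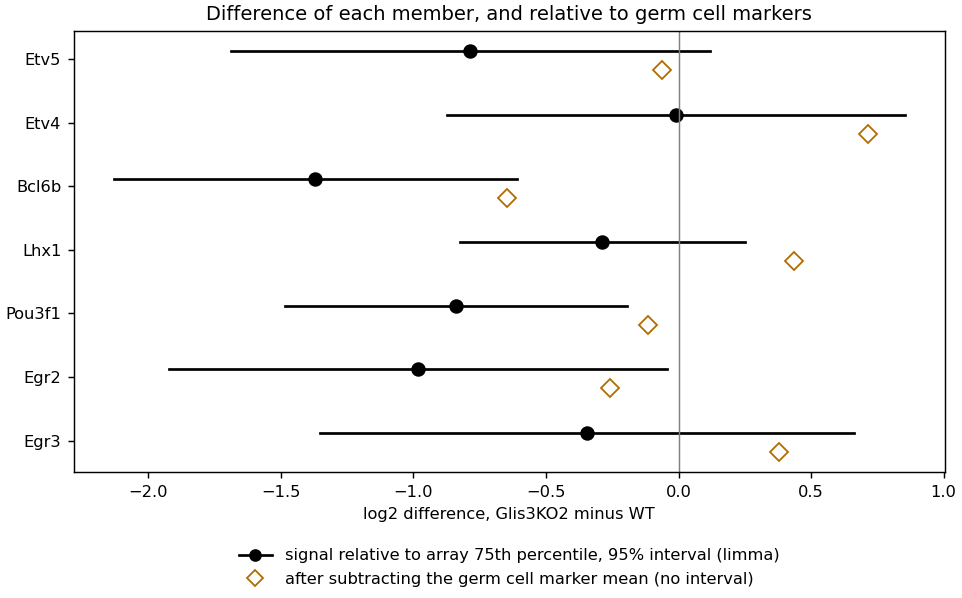
Log2 difference, Glis3KO2 minus WT (horizontal axis), for each gene: filled circles with 95% intervals from limma, and open diamonds for the difference after the germ cell marker mean was subtracted, without interval. Bcl6b stays lowest on both scales (-1.37 and -0.65), and Etv4, Lhx1 and Egr3 lie right of 0 on the second.

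Profiles over the 8 arrays were compared by the root mean square difference of centred log2 values, as a description. The closest members were Etv5 with Egr2 (0.31) and Bcl6b with Pou3f1 (0.33), and the farthest were Bcl6b and Egr3 (0.87). Over all genes, Fgd6 (0.16) and Dctd (0.17) lay closest to Etv5, and Kif2c and Dctd (0.24 each) to Egr2. Urah (0.14) lay closest to Pou3f1, and Cyp21a1 (0.29) and Dhcr7 (0.30), a sterol synthesis enzyme, to Bcl6b. Foxo1 (0.15), a transcription factor needed by spermatogonial stem cells, was among the 3 genes closest to Etv4. Ctdsp2 (0.10) was closest to Lhx1 and Fam117a (0.20) to Egr3.

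Other genes of the pathway were set beside the 7. Of 21 measured receptors and signal transducers, 11 had a lower and 10 a higher mean in Glis3KO2, with a median of -0.01 and 0 past the threshold. Gfra1, the GDNF co-receptor, differed by -0.59 (SE 0.33) and Fgfr3, an FGF receptor, by -1.02 (SE 0.35), while Pik3r1, a regulatory subunit of PI3K, was at 0.72 (SE 0.61). Gdnf itself differed by -0.38 (SE 0.38). Of 18 other measured genes reported to depend on GDNF or FGF2, or that dampen the same pathway, 12 had a lower and 6 a higher mean, with a median of -0.27 and again 0 past the threshold. Gfra1 and Ret stand on both lists, and Nanos3 is also a germ cell marker. Nanos2, an RNA-binding protein of the stem state, differed by -0.998 (SE 0.37) and Cdh1, an adhesion protein, by -1.02 (SE 0.32). Ccr1, a chemokine receptor also found on blood cells, was at 2.02 (SE 0.63), with every Glis3KO2 array above every WT array, as for 0.902% of genes. Ccr1 was well above background on only 3 of 4 WT arrays (mean -4.91), and Cdh1 on only 3 of 4 Glis3KO2 arrays (mean -4.52). The ERK feedback inhibitors Dusp6 and Spry2 were at -0.02 (SE 0.21) and 0.19 (SE 0.34), and Spry4 at -0.66 (SE 0.42). Dusp4, Spred1 and Spred2 were at -0.23 (SE 0.40), 0.07 (SE 0.26) and -0.49 (SE 0.45), with no shared direction among these inhibitors. Of 17 relatives of the 7 factors, 11 had a lower and 6 a higher mean, with a median of -0.17. Among them Lhx2 was at -0.88 (SE 0.49), Pou3f3 at -0.45 (SE 0.22) and Pou3f4 at -0.42 (SE 0.24).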

How the data were processed

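Amplified, Cy3-labelled RNA was hybridised to 1-colour Agilent arrays. Agilent's Feature Extraction software, version 12.0.0.7 per the file headers, wrote the deposited files, whose processed intensity is linear and not scaled between arrays. The deposited value table equalled it on 100% of spots. Each processed signal was divided by its array's 75th percentile, computed without control spots, and put on a log2 scale. Spots flagged as outliers were dropped, and repeated spots averaged. Of 41174 probes, 28223 were named through a RefSeq table of GRCm38.p6. Probes well above background on at least 4 arrays (36429) were kept, and the brightest stood for its gene, which left 17513 genes.

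Genes and probes were fitted by limma (version 3.58.1, R version 4.3.3) with a genotype term, using lmFit and eBayes. P-values were adjusted over all of them by Benjamini-Hochberg, with a threshold of 0.05. The fit was tested on simulated data. The number of arrays limits the precision. Same-numbered arrays correlated in their deviations from the group means at 0.16, 0.34, 0.18 and 0.13 across genes, all over 0.1, so a replicate block was run beside it (WT replicate 3 with Glis3KO2 replicate 4 and the reverse gave 0.14 and 0.12). Glis3KO2 samples took the last positions of each slide and WT samples the first, so position and genotype cannot be told apart. Alternatives were other background corrections, scalings, filters, probe rules, blocks, spread models and arrays left out. Normexp used median spot and background intensities.

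The members, lists, alternatives and the rule for named genes (the members and all their probes, Glis3, up to 4 genes of smallest p per list, and the 3 closest profiles per member) were chosen with earlier results of these data known. Genes outside it (Egr1, Dusp6, Spry2 and Spry4) were named after their values were seen. One gene that this rule names is not reported here.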

Additional observations from a re-analysis of the deposited data

How the results depend on the processing

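Bcl6b, Etv5, Pou3f1 and Egr2 kept a negative difference under each alternative taken singly. None of the 7 genes passed the threshold in any that gave a test (within a slide there was none). With each array left out in turn, Bcl6b lay between -1.65 and -1.19, Pou3f1 between -1.08 and -0.67, Egr2 between -1.26 and -0.65, Etv5 between -1.10 and -0.51, Lhx1 between -0.41 and -0.18, Egr3 between -0.84 and -0.04, and Etv4 between -0.25 and 0.21. Without WT replicates 3 and 4, Bcl6b was at -0.97, Pou3f1 at -0.52, Egr2 at -0.23, Lhx1 at -0.16 and Etv5 at -0.02, while Etv4 and Egr3 turned to 0.57 and 0.31. Etv4 also turned to 0.0133 within slide 2 and to 0.0495 without scaling between arrays. The subtraction of the germ cell marker mean was also run with other alternatives, and 3 to 5 of the 7 genes were then lower in Glis3KO2. Where the count was 3, Bcl6b, Etv5, Pou3f1 and Egr2 did not all stay negative. Under that subtraction alone Etv4, Lhx1 and Egr3 turned to 0.72, 0.44 and 0.38. With normexp and quantile normalization Pou3f1 was at -0.47, and with normexp and the 75th percentile Egr3 was at -0.67 and the median of all genes at -0.23. At an unadjusted p under 0.05 between 1 and 5 of the 7 genes were lower over the alternatives, 1 without WT replicates 3 and 4, and with slide as a block Egr2 was at 0.0555. The cause of these changes was not tested.

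The replicate block left each difference as it was, called 0 genes (1877 at an unadjusted p under 0.05, against 1208 without it) and changed no call. Quantile normalization called 1 gene, Gm16702, and the fit over probes called 0 or 1 (a Ric3 probe, without Glis3KO2 replicate 3) with each array left out. The count at an unadjusted p under 0.05 was 2313 with array weights, 423 without scaling, 2408 without WT replicate 2, 663 without WT replicate 3 and 770 without WT replicates 3 and 4. Of these genes 831 of 1208 were lower in Glis3KO2, against 615 of 1087 with normexp and quantile normalization.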
